A study of Homo sapiens with 4 samples.

Results

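Kinesins are motor proteins that use ATP to walk along microtubules or to take their ends apart. In dividing cells a subset of them builds the spindle, moves and aligns chromosomes and organises the midzone where the cell is divided, and several of these are transcribed mainly in G2 and mitosis. The others mostly carry vesicles, organelles and ciliary cargo. The genes described here are all those with a symbol made of KIF and a digit and measured by a probe set with that symbol alone, which gave 42 symbols of 19775 on the array. Of these, 38 are kinesin genes, measured by 80 probe sets, and 4 are antisense RNAs named after a kinesin (KIF1C-AS1, KIF9-AS1, KIF23-AS1 and KIF25-AS1), measured by 6. A fixed list of 10 mitotic kinesins (KIF2C, KIF4A, KIF11, KIF14, KIF15, KIF18A, KIF20A, KIF20B, KIF22 and KIF23) was set against the other 28.

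Expression came from SNU638, an established gastric cancer cell line, infected with a lentivirus that carried a pLKO.1 short hairpin RNA and kept in puromycin. The groups were measured on single-colour arrays, the sh-ACTL6A group with a hairpin against ACTL6A (2 arrays) and the scramble group with a scrambled RNA (2 arrays). ACTL6A is an actin-related subunit of chromatin-remodelling complexes. Which of the study's hairpins each sh-ACTL6A array carried, and whether arrays of 1 group came from separate cultures, is stated neither in the labels nor in the methods, so each p-value reflects the spread among these arrays alone, which may be technical. Values are log2 signals, and differences are sh-ACTL6A minus scramble throughout.

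ACTL6A read 10.16 and 10.32 on the sh-ACTL6A arrays and 11.92 and 11.82 on the scramble arrays, a change of -1.63 ± 0.14 (SE, limma adjusted p = 0.0408). It was the single gene of 12286 that passed an adjusted p of 0.05, so the background of calls was 0.00814%. Of 8 epithelial markers, 7 lay above the signal threshold, CLDN4 being the exception, as did 3 of the 7 markers of other cell types analysed here (COL1A1, PECAM1 and DCN). The summed linear signal of the epithelial markers was 40239 and 47038 in sh-ACTL6A and 46945 and 55003 in scramble. Of the 7 tested, 6 lay below 0, and KRT18, a keratin, differed by -0.34 without overlap (limma adjusted p = 0.595). The part of this in the kinesin values was not tested. The summed linear signal of the 7 markers of other cell types was 601 to 660 in sh-ACTL6A and 509 to 713 in scramble. The excess of 3′ over 5′ signal of ACTB, a gauge of RNA integrity, was 1.21 and 0.78 on sh-ACTL6A replicates 1 and 2 and 1.63 and 0.78 on scramble replicates 1 and 2, so it followed the replicate number rather than the group. The bacterial spike-in DapX read 10.37 and 10.51 in sh-ACTL6A and 9.95 and 10.24 in scramble, and its part in the differences described here was not tested.

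The promoters of the mitotic kinesins had features in common that the list did not use. Genes of the G2 and M phases often carry a cell cycle homology region (CHR), which binds MuvB complexes, a short way downstream of a CCAAT box, which binds NF-Y. RefSeq promoter windows (GRCh38.p14, 250 bases before to 50 bases after the gene's start) were found for 32 of the 38 kinesins, and KIF5A, KIF13B, KIF19, KIF21B, KIF26B and KIF27 had no entry in the table used. The CHR was searched as TTTGAA and the CCAAT box as CCAAT, each on both strands. Variant spellings were not searched, so a window without a match may still hold such a motif. The CHR letters stood in 7 of 10 mitotic kinesin windows, in 2 of 22 windows of other kinesins and in 15.2% of 35116 promoter windows of all genes. The CCAAT letters stood in 8 of 10, in 7 of 22 and in 34.6%, and both motifs stood in 6 of 10, in 2 of 22 and in 5.9%. Over the 10014 windows of genes tested for expression, the CHR, CCAAT and joint shares were 10.0%, 37.2% and 4.4%. For the other kinesins tested they were 2, 5 and 2 of 13 windows. These are matches of letters and were not tested as binding sites.

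The windows below show how closely the motifs lie in the mitotic kinesins that hold a CHR. Each runs 5′ to 3′ on the gene's strand, from 10 bases before the first motif shown to 10 bases after the last, with CCAAT and CHR letters of either strand in capitals.
KIF4A (chrX:70290036-70290085, plus strand): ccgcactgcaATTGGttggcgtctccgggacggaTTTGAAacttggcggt
KIF11 (chr10:92593067-92593117, plus strand): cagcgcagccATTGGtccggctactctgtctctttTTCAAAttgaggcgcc
KIF14 (chr1:200620735-200620783, minus strand): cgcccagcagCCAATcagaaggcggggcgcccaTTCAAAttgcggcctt
KIF18A (chr11:28108151-28108211, minus strand): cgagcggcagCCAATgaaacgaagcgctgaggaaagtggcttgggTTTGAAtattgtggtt
KIF23 (chr15:69414275-69414309, plus strand): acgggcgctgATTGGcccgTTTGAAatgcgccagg
KIF15 (chr3:44761749-44761774, plus strand, CHR alone): aagcgccaaaTTCAAAtttgcggcca

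The bases between the CCAAT box and the CHR numbered 19 in KIF4A, 20 in KIF11, 18 in KIF14, 30 in KIF18A and 4 in KIF23. In KIF20B the CHR letters occurred as a direct pair just after the gene's start, 117 bases from the nearest upstream CCAAT box. KIF20A and KIF22 held CCAAT letters without TTTGAA, and KIF2C held neither.
KIF20A (chr5:138179008-138179059, plus strand, 2 CCAAT boxes): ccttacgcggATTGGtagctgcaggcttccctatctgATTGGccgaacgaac
KIF22 (chr16:29790675-29790699, plus strand, 1 CCAAT box): cgtagtcttgATTGGtggaacctgg
Of the other kinesins, KIF18B and KIF5B held both motifs. KIF18B works with KIF2C at microtubule ends in mitosis although it is not on the list of 10, and its window had the same order of motifs, 29 bases apart. In KIF5B the CHR letters came first.
KIF18B (chr17:44947756-44947815, minus strand): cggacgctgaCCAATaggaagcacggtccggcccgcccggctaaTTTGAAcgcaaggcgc

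For the comparison of groups, each gene was represented by its brightest probe set and tested where its mean log2 signal over 4 arrays reached 5.63, the median of all probe sets. All 10 mitotic kinesins and 15 of the other 28 passed. No kinesin passed an adjusted p of 0.05 (limma, adjusted p 0.63 to 0.9997), and KIF20A was the only one at an unadjusted p under 0.05, where the background over all genes tested was 3.21% higher and 2.3% lower in sh-ACTL6A. The methods' t-test likewise called 0 kinesins after adjustment. KIF5B and KIF11, but not KIF20A, stood at an unadjusted p under 0.05 there, where the share over all genes was not counted.

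KIF20A, which brings the chromosomal passenger complex to the central spindle, showed the largest difference among the mitotic kinesins. Its only probe set (218755_at) read 11.56 and 11.84 on the sh-ACTL6A arrays and 11.20 and 11.06 on the scramble arrays, so the groups did not overlap. The difference was 0.57 ± 0.15 (SE), a fold of 1.48, with a 95% confidence interval of 0.23 to 0.91 and a limma adjusted p of 0.63. In these bulk samples, a different share of cells in G2 or mitosis and a different amount of RNA per cell cannot be told apart. Its paralogue KIF20B, which acts late in cytokinesis, lay on the other side of 0, at 10.66 and 10.40 in sh-ACTL6A against 10.83 and 10.84 in scramble, again without overlap. That difference was -0.30 ± 0.15 (SE, 95% confidence interval -0.65 to 0.05, limma adjusted p = 0.918). The KIF20B probe sets disagreed, however. A dimmer one just above the threshold (234744_x_at) read 6.05 on both sh-ACTL6A arrays and 5.32 and 5.35 in scramble, and one below the threshold (234748_x_at) also read higher in sh-ACTL6A, so that the mean of all 3 turned to 0.57. The suffix of both names marks probes that can also match other transcripts. KIF23, which forms the centralspindlin complex with RACGAP1, read 11.23 and 11.10 in sh-ACTL6A and 11.07 and 11.06 in scramble, a difference of 0.10 ± 0.13 (SE) without overlap.

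**Figure D1:**
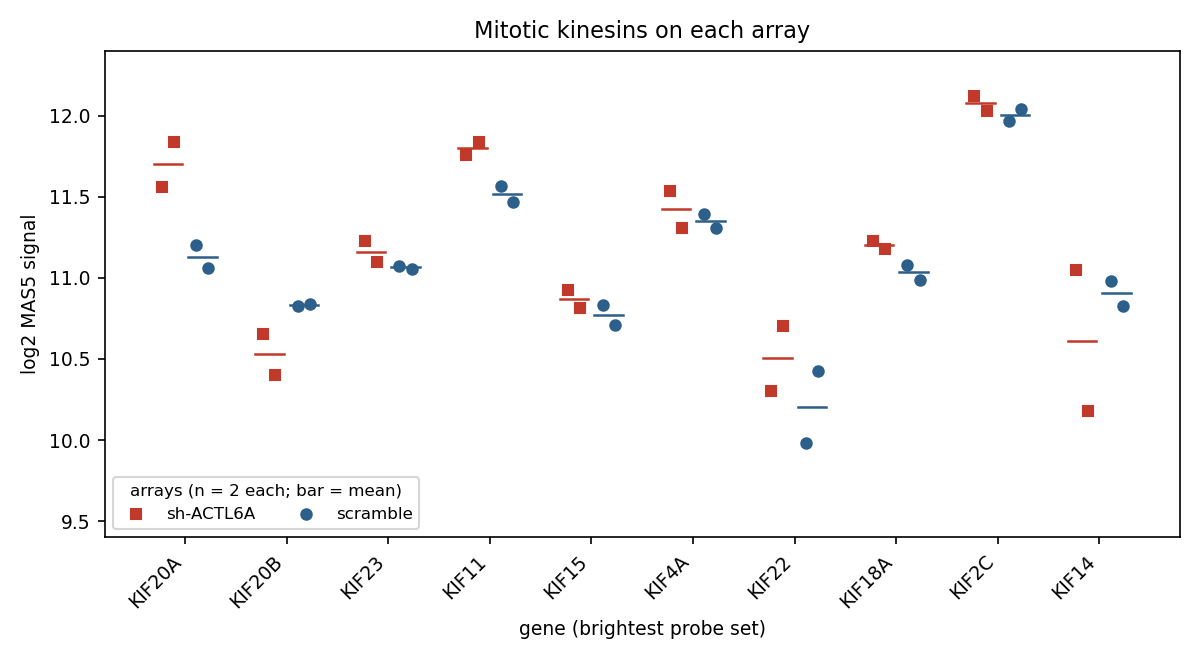
Log2 MAS5 signal (vertical axis) of the brightest probe set of each mitotic kinesin (horizontal axis), with red squares for the 2 sh-ACTL6A arrays, blue circles for the 2 scramble arrays and bars for means. KIF20A, KIF23, KIF11 and KIF18A lie higher in sh-ACTL6A without overlap and KIF20B lower, while for KIF14 1 sh-ACTL6A array stands at 10.18, apart from the other 3.

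Among the motors that set up the spindle, KIF11 slides antiparallel microtubules apart and KIF15 supports that force. KIF11 read 11.76 and 11.84 on the sh-ACTL6A arrays and 11.57 and 11.47 on the scramble arrays. The groups did not overlap, and the difference was 0.28 ± 0.12 (SE, 95% confidence interval -0.0025 to 0.57, limma adjusted p = 0.914). KIF15 read 10.92 and 10.82 in sh-ACTL6A and 10.83 and 10.71 in scramble, which overlap, with a difference of 0.10 ± 0.14 (SE). KIF2C, a microtubule depolymerase that corrects faulty kinetochore attachments, read 12.12 and 12.03 in sh-ACTL6A and 11.97 and 12.04 in scramble, also overlapping, with a difference of 0.07 ± 0.11 (SE). Its second probe set (211519_s_at), also overlapping, differed by 0.28 ± 0.23 (SE) in the fit over every probe set.

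Of the motors that act on chromosomes, KIF18A, which damps chromosome oscillation at the metaphase plate, read 11.23 and 11.18 in sh-ACTL6A and 11.08 and 10.99 in scramble, a difference of 0.17 ± 0.13 (SE) without overlap. KIF4A, a chromokinesin that also sets the length of the midzone with PRC1, read 11.54 and 11.31 in sh-ACTL6A against 11.39 and 11.30 in scramble, which overlap, with a difference of 0.07 ± 0.14 (SE). The chromokinesin KIF22 read 10.30 and 10.70 in sh-ACTL6A and 9.98 and 10.43 in scramble. Its groups overlapped because replicate 2 read higher than replicate 1 in both groups, as on its second probe set, at 6.99 and 8.11 in sh-ACTL6A and 6.86 and 7.74 in scramble. The ACTB 3′ excess given above also differed by replicate number, and its part in the KIF22 values was not tested. The KIF22 difference was 0.30 ± 0.21 (SE, limma adjusted p = 0.93).

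KIF14, which anchors citron kinase at the midbody, was the mitotic kinesin on which the sh-ACTL6A arrays disagreed most. It read 11.05 and 10.18 in sh-ACTL6A and 10.98 and 10.83 in scramble. A second probe set (206364_at) showed the same picture, at 10.72 and 9.88 in sh-ACTL6A and 10.60 and 10.38 in scramble, so both put sh-ACTL6A replicate 2 below the other 3 arrays. The difference over both groups was -0.29 ± 0.26 (SE, 95% confidence interval -0.90 to 0.32, limma adjusted p = 0.941). It was -0.73 without sh-ACTL6A replicate 1 and 0.14 without replicate 2. Over all genes tested the sh-ACTL6A arrays were also the least alike pair. Their root mean square difference was 0.441, against 0.366 to 0.437 for every other pair of arrays. Without replicate 1, KIF14 (limma adjusted p = 0.0178) and KIF20A (0.71, adjusted p = 0.00973) passed the threshold, in a fit that takes the lone sh-ACTL6A array to vary like the scramble pair and that called 401 genes in all.

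Set side by side, 8 of the 10 mitotic kinesins lay above 0 and 2 below, with a median difference of 0.10, where 51.9% of all genes tested lay above 0 with a median of 0.009. Groups did not overlap for 4 higher and 1 lower, against 19.3% and 15.4% of all genes tested. Of the 15 other kinesins tested, 7 lay above 0 and 8 below, with a median of -0.03, and groups did not overlap for 3 higher and 3 lower. Each gene counted as lower (KIF20B among the mitotic, KIF2A, KIF5A and KIF9 among the others) also had a probe set that differed by more than 0. No gene counted as higher had a probe set below 0, but KIF11, KIF18A and KIF20A had only 1. The medians stood 0.13 apart. After quantile normalisation 5 of these 15 lay above 0. With the values as deposited, counting KIF18B with the mitotic kinesins put the medians 0.17 apart, a choice made after seeing the data. The distance differed between the sh-ACTL6A arrays. On sh-ACTL6A replicate 1 the median against the scramble mean was 0.16 for the mitotic and -0.12 for the other kinesins, and on replicate 2 it was 0.04 and 0.06. The mitotic median minus the other was thus -0.02 without replicate 1 and 0.28 without replicate 2. The 3 mitotic kinesins whose windows lacked the letters TTTGAA (KIF20A, KIF22 and KIF2C) differed by 0.57, 0.30 and 0.07, and the 7 with them by -0.30 to 0.28.

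**Figure D2:**
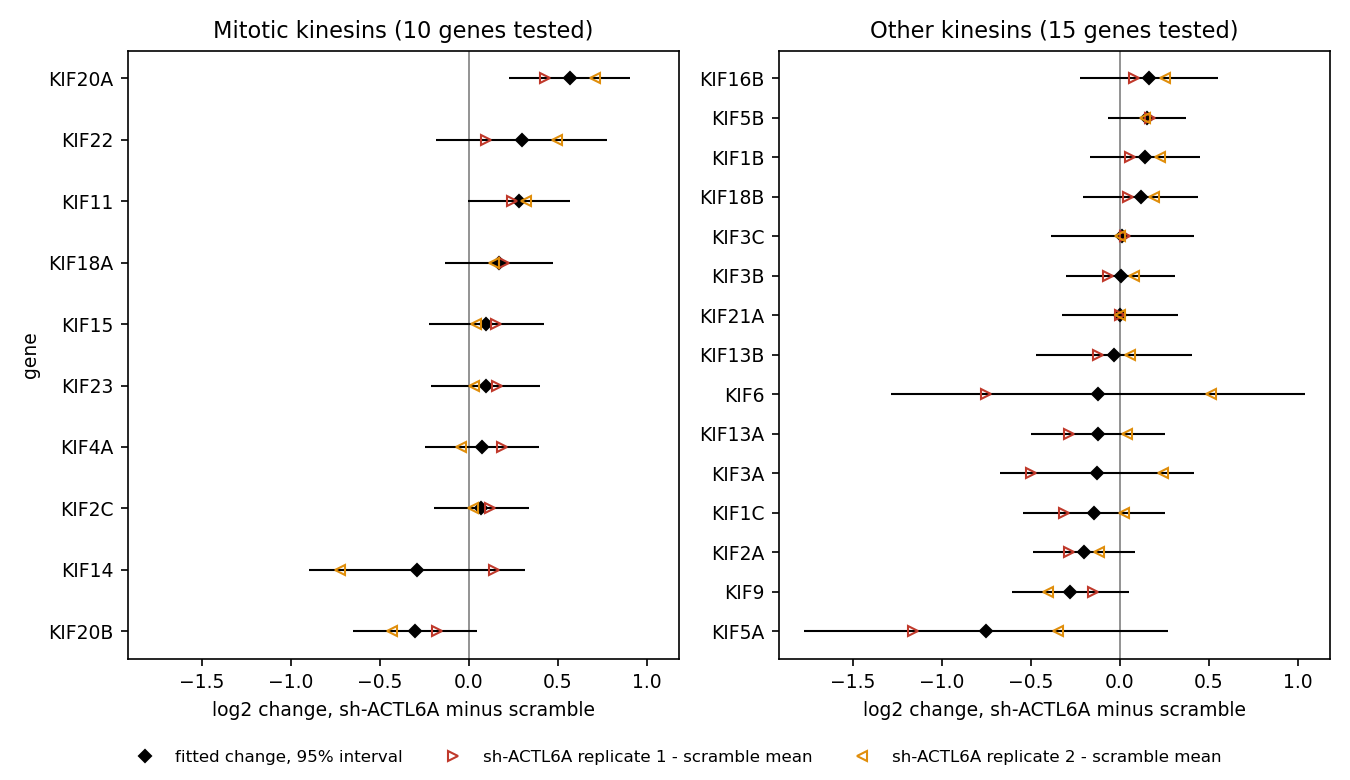
Log2 change (sh-ACTL6A minus scramble, horizontal axis) of each tested kinesin (vertical axis), with diamonds and lines for the fitted change and its 95% confidence interval and triangles for the difference of each single sh-ACTL6A array from the mean of the scramble pair. KIF20A, at 0.57, is the gene whose interval lies wholly above 0, and the triangles of KIF14, KIF3A and KIF6 fall far apart on opposite sides of 0.

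Among the kinesins that carry cargo, KIF5B is the widely expressed heavy chain of conventional kinesin. Its brightest probe set (224662_at) read 13.16 and 13.13 on the sh-ACTL6A arrays and 13.02 and 12.96 on the scramble arrays, a difference of 0.16 ± 0.09 (SE, 95% confidence interval -0.06 to 0.37, limma adjusted p = 0.918). All 3 of its probe sets were bright and none overlapped between groups, the other differences being 0.30 (201991_s_at) and 0.25 (201992_s_at). KIF5A, the neuronal heavy chain, lay close to the signal threshold and gave no such agreement. The tested probe set (205318_at) read 5.01 and 5.82 in sh-ACTL6A and 6.33 and 6.01 in scramble, while a dimmer one (223933_at) read 5.50 and 5.75 in sh-ACTL6A and 4.46 and 2.68 in scramble. The differences were -0.75 ± 0.44 (SE) in the fit over genes and 2.05 ± 0.79 (SE) in the fit over every probe set, so the sign of KIF5A depended on the probe set. The third heavy chain, KIF5C, was below the threshold.

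KIF1B, a mitochondrial and vesicle motor, read 11.18 and 11.35 in sh-ACTL6A and 11.11 and 11.14 in scramble, a difference of 0.14 ± 0.13 (SE) without overlap. The further KIF1B probe sets, at 0.05, 0.56 and, below the threshold, 0.60, had the same sign. KIF16B, an early endosome motor, likewise did not overlap, at 9.13 and 9.30 in sh-ACTL6A and 9.06 and 9.04 in scramble. For other cargo motors the sh-ACTL6A arrays fell on both sides of the scramble mean. KIF3A, which with KIF3B and KIFAP3 forms the motor of ciliary transport, read 10.25 and 10.99 in sh-ACTL6A against 10.76 and 10.74 in scramble. KIF1C, a vesicle motor, read 9.59 and 9.93 in sh-ACTL6A against 9.89 and 9.92 in scramble, and KIF13A, an endosome motor, 10.28 and 10.61 against 10.56 and 10.57. On each of these 3 it was sh-ACTL6A replicate 1 that lay lowest of the 4 arrays. The KIF13A probe sets disagreed, 4 dimmer ones above the threshold differing by 0.03 to 0.30. KIF3B, KIF3C, KIF13B and KIF21A differed by 0.0043, 0.01, -0.03 and 0.0014, with SEs of 0.13 to 0.19.

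The remaining kinesins tested have roles at microtubule ends or in cilia. KIF2A, a depolymerase of spindle poles and neurons, read 11.92 and 12.09 in sh-ACTL6A and 12.28 and 12.13 in scramble, a difference of -0.20 ± 0.12 (SE) without overlap, but its second probe set (203086_at) differed by 0.23. KIF18B read 11.02 and 11.17 in sh-ACTL6A and 11.04 and 10.91 in scramble. KIF9, a motor of motile cilia, read 11.73 and 11.48 in sh-ACTL6A and 11.98 and 11.79 in scramble on a probe set that can match other transcripts (231319_x_at), a difference of -0.28 ± 0.14 (SE, limma adjusted p = 0.918). Of its 3 other probe sets, 228429_x_at and 230701_x_at have the same suffix and differed by -0.30 and 0.28. The third (223778_at), without that suffix, read 7.67 and 7.30 in sh-ACTL6A and 7.04 and 7.21 in scramble. Its difference was 0.36, higher without overlap. KIF6, another ciliary kinesin, read 5.12 and 6.39 in sh-ACTL6A against 6.00 and 5.75 in scramble, close to the threshold.

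The sign of a change could be checked between probe sets for 16 kinesins with 2 or more above the threshold. All had the same sign in 4 of 5 mitotic kinesins (KIF2C, KIF14, KIF22 and KIF23, with KIF20B mixed) and in 6 of 11 others (KIF1B, KIF1C, KIF3A, KIF3C, KIF5B and KIF16B). The 32 kinesin probe sets below the threshold spread from -1.71 to 2.34, with SEs of 0.52 to 1.34 in the fit over every probe set, against -0.75 to 0.72 among the 48 above it. The groups did not overlap for 22 of the 86 probe sets higher and 10 lower, where the background was 16.7% and 17.1%. When every probe set of the array was tested with limma, 0 of 80 kinesin probe sets passed an adjusted p of 0.05, as did 0% of all probe sets, and 3 had an unadjusted p under 0.05 (KIF20A, KIF11 with 204444_at and KIF5A with 223933_at), where the background was 5.01%.

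**Figure D3:**
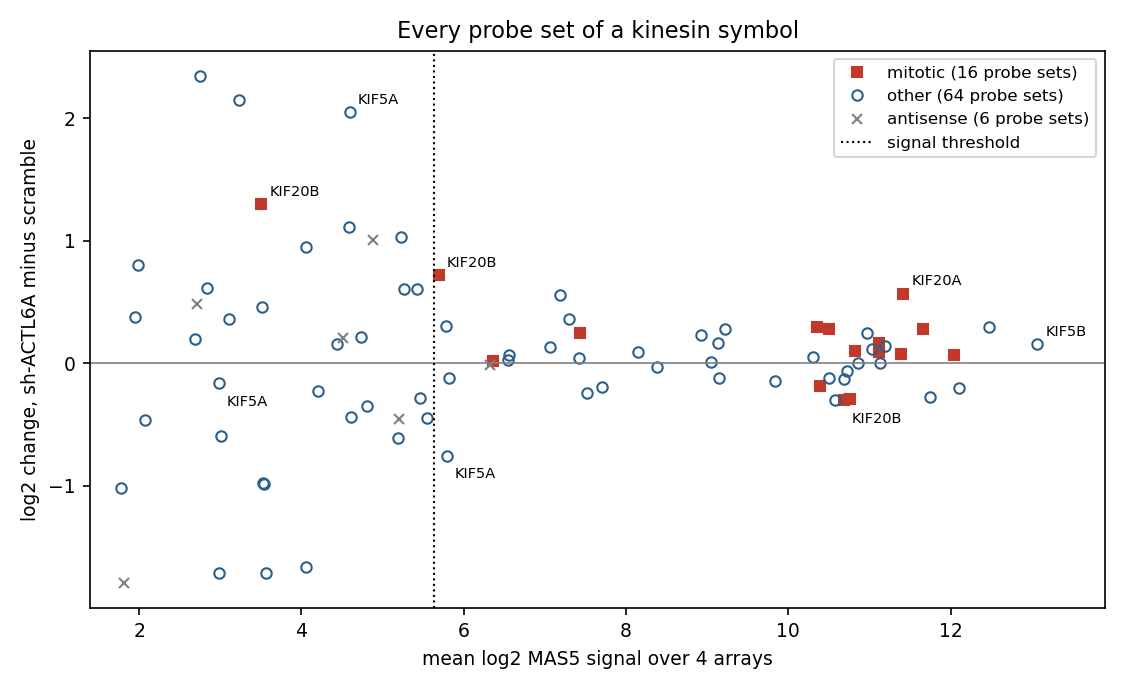
Difference in log2 signal between sh-ACTL6A and scramble (vertical axis) by the mean log2 signal of the 4 arrays (horizontal axis) for 86 probe sets, with red squares for mitotic kinesins, open circles for other kinesins, crosses for antisense RNAs and a dotted line at the signal threshold of 5.63. The spread widens to the left of the line, and the probe sets of KIF5A and KIF20B fall on both sides of 0.

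The 13 kinesins without a probe set above the threshold were KIF1A, KIF2B, KIF5C, KIF7, KIF12, KIF17, KIF19, KIF21B, KIF24, KIF25, KIF26A, KIF26B and KIF27. Several of these work in neurons, cilia or the testis. KIF24, a regulator of cilium assembly, read 3.81 and 4.05 in sh-ACTL6A and 0.09 and 3.08 in scramble, a difference of 2.34 ± 1.17 (SE), and 1 scramble array made most of it. KIF26B read 4.85 and 3.76 in sh-ACTL6A against 2.68 and 1.62 in scramble on one probe set (238617_at, 2.15 ± 0.90, SE), while another (1555164_at) differed by -1.71. Of the antisense RNAs, KIF9-AS1 alone passed the threshold, at 6.74 and 5.90 in sh-ACTL6A and 6.64 and 6.02 in scramble, with a difference of -0.01 ± 0.41 (SE).

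Partners of the mitotic kinesins were examined as a list of 30 spindle and midzone genes, of which 29 were tested. Of these, 19 lay above 0 and 10 below, with a median of 0.13, and groups did not overlap for 12 higher and 0 lower, against 19.3% and 15.4% of all genes. None passed an adjusted p of 0.05 (limma). An unadjusted p under 0.05 was reached by 2 higher and 0 lower, against 3.21% and 2.3% of all genes tested. HMMR, a spindle-binding receptor for hyaluronan, read 12.56 and 12.42 in sh-ACTL6A and 12.15 and 12.24 in scramble, and ANLN, which scaffolds the contractile ring, read 12.93 and 12.94 in sh-ACTL6A and 12.73 and 12.62 in scramble. NUSAP1, a microtubule bundler, differed by 0.21 ± 0.10 (SE). RACGAP1, the partner of KIF23, differed by 0.22 ± 0.11 (SE) without overlap. On sh-ACTL6A replicates 1 and 2 the median of all genes tested was 0.027 and 0.018 against the scramble mean. The median of the list was 0.15 and 0.19, so both arrays lay on the same side of 0. CENPE and KIFC1 are on this list as well. The minus-end motors KIFC1, KIFC2 and KIFC3 and the kinetochore motor CENPE differed by 0.14, -0.05, 1.01 and -0.38, all with overlapping groups.

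**Figure D4:**
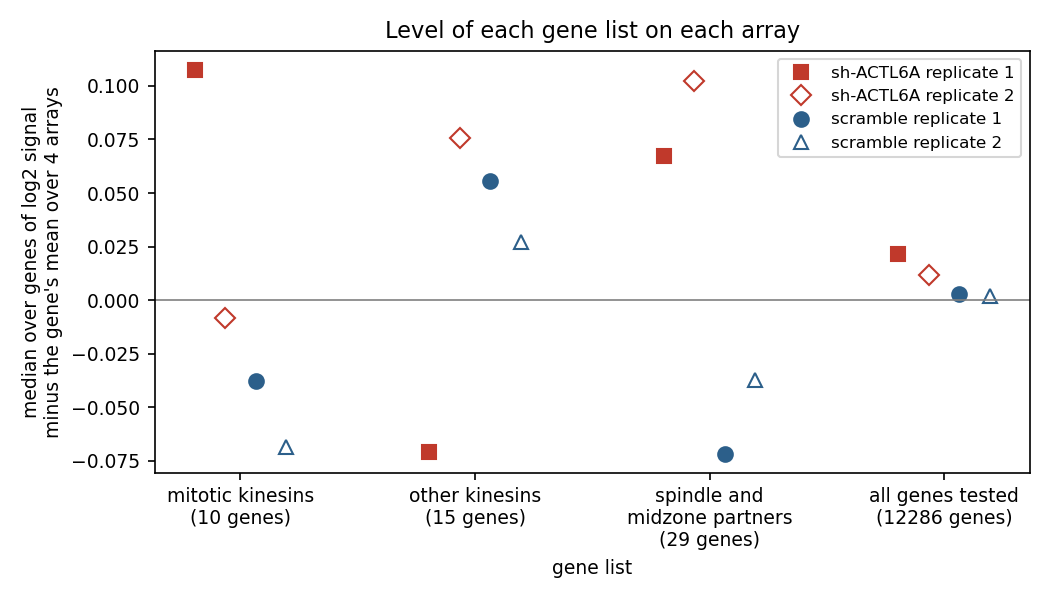
Median over genes of the log2 signal minus each gene's mean over 4 arrays (vertical axis) for 4 gene lists (horizontal axis, genes tested in brackets), 1 symbol per array. Both sh-ACTL6A arrays lie above both scramble arrays for the mitotic kinesins and the spindle partners. The same order holds for all genes tested, at 0.021 and 0.012 in sh-ACTL6A against 0.003 and 0.002 in scramble. For the other kinesins sh-ACTL6A replicate 1 (-0.07) and replicate 2 (0.08) lie on either side.

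Of 16 genes tested that are known to control G2 and M transcription, 7 lay above 0 and 9 below, with a median of -0.09, and groups did not overlap for 2 higher and 2 lower, against 19.3% and 15.4% of all genes tested. FOXM1, a transcription factor of G2 and M genes, read 11.26 and 11.20 in sh-ACTL6A and 10.98 and 10.99 in scramble, a difference of 0.25 ± 0.13 (SE). MYBL2, which binds MuvB at the CHR, differed by 0.33 ± 0.18 (SE), again without overlap. NFYA, a subunit of the CCAAT-binding factor, differed by -0.31 ± 0.16 (SE), lower without overlap. None of the 3 passed the adjusted threshold (limma adjusted p = 0.918 for each).

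Light chains and adaptors of the cargo kinesins lay above 0 for 10 of 16 genes tested of 20, with a median of 0.09, and the groups did not overlap for 5 higher and 2 lower, against the same shares of all genes. KLC1, a kinesin light chain, differed by 0.23 ± 0.18 (SE), PLEKHM2, which links lysosomes to kinesin-1, by 0.33 ± 0.25 (SE) and FEZ2, a cargo adaptor, by -0.15 ± 0.09 (SE). Dynein, the motor of the opposite direction, and its dynactin partners lay above 0 for 12 of 25 genes, with a median of -0.0074. The other 13 lay below 0, and groups did not overlap for 4 higher and 3 lower, beside 19.3% and 15.4% of all genes. The largest differences were lower with overlapping groups, at -0.46 ± 0.32 (SE) for DYNC1LI2 and -0.36 ± 0.26 (SE) for BICD2. DYNC1LI2 read 12.87 and 11.67 in sh-ACTL6A and 12.76 and 12.68 in scramble. BICD2 read 10.89 and 10.04 in sh-ACTL6A and 10.76 and 10.89 in scramble. In both genes only sh-ACTL6A replicate 2 lay below the scramble arrays. BICD1, a dynein adaptor, differed by 0.31 ± 0.18 (SE), DYNC1I1, an intermediate chain, by 0.30 ± 0.20 (SE) and DCTN3, a dynactin subunit, by 0.16 ± 0.11 (SE). Of 12 tubulins tested, 2 lay above 0 and 10 below, with a median of -0.07, and groups did not overlap for 1 higher and 2 lower, again beside 19.3% and 15.4% of all genes. TUBD1, the delta tubulin of centrioles, differed by 0.44 ± 0.17 (SE) and was the only tubulin at an unadjusted p under 0.05 (limma adjusted p = 0.855), where the background was 3.21% higher and 2.3% lower. TUBB4B and TUBA1C differed by -0.13 ± 0.09 and -0.11 ± 0.08 (SE). No gene of these lists passed the adjusted threshold, and 0 light chain, adaptor or dynein genes had an unadjusted p under 0.05.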

How the data were processed

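The authors deposited log2 signals of 54675 probe sets on 4 arrays, made with MAS5 per the submitters' processing notes. No source used here gives its version. The method summarises and scales each array by itself, and the mean linear signal trimmed by 2% at each end was 500.0 on every array. Values were used as deposited, and signals of dim probe sets vary widely. Symbols came from GEO's platform table, in which 41091 of 54613 non-control probe sets had 1 symbol.

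Each gene was represented by its brightest probe set and tested if the mean reached the 50th percentile of signal (12286 of 19775 genes). Differences were tested 2-sided with limma 3.58.1 in R 4.3.3 (lmFit, eBayes with an intensity trend, 7.65 degrees of freedom) and Benjamini-Hochberg adjustment over all genes. Precision is set by there being 2 arrays in a group. A second fit took every non-control probe set. The fit was tested on simulated data. Members, lists, the named genes (the mitotic kinesins, the 12 other kinesins with the smallest p, any kinesin probe set with p under 0.05, and 3 partners per list) and the alternatives were chosen with earlier results of these data known. Alternatives were quantile normalisation, median centring, other signal filters (none, 75th percentile), probe set averages, an offset of 50 on the linear signal, no trend, the methods' t-test, every probe set, the replicate block and leaving out each array. Sequences are from RefSeq (GRCh38.p14).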

Additional observations from a re-analysis of the deposited data

How the results depend on the processing

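ACTL6A was the 1 gene called, and 0 genes were called with quantile normalisation, no filter on dim genes, no intensity trend, the methods' t-test or every probe set, where ACTL6A itself differed by -1.64 (quantile) or -1.63. The replicate number as a block called 2 genes, neither a kinesin, and left every kinesin uncalled. Same-numbered arrays deviated with a correlation of 0.0565 across genes, and with 2 pairs whose number the labels do not tie to a shared culture or day they were not treated as paired, although ACTB and KIF22 differed by number. Leaving out 1 array gave 0 to 401 calls (335 without sh-ACTL6A replicate 2) and an ACTL6A change of -1.71 to -1.55, with its call lost without scramble replicate 1 or replicate 2. The mitotic median was 0.17 with all probe sets averaged, and 0.17 with those above the threshold averaged, a setting chosen after seeing the data. Without 1 array it was 0.036 to 0.16, the other kinesins' median -0.12 to 0.060 and the first minus the second -0.024 to 0.28. Averaging all probe sets turned KIF20B to 0.57, KIF9 to 0.016, KIF2A to 0.014 and KIF13A to 0.17, and averaging those above the threshold gave 0.21, 0.016, 0.014 and 0.081. Median centring turned KIF13B to 0.00054. Of the 22 named kinesins, the sign turned without 1 array for KIF4A (-0.042 to 0.19), KIF14 (-0.73 to 0.14), KIF1C (-0.32 to 0.026), KIF13A (-0.29 to 0.040), KIF3A (-0.50 to 0.24), KIF6 (-0.75 to 0.51) and KIF13B (-0.12 to 0.060). Of the other values of single kinesins, 228 with all arrays and 78 with 1 left out kept their sign and their side of the threshold. Dim probe sets limit what can be said of the 13 kinesins not tested.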
